A study of Mus musculus with 4 samples.

Results

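Alternatively activated (M2) macrophages are commonly recognised by a set of marker genes, which was read here in 4 livers. The wild-type mice had acute-on-chronic liver failure (ACLF), acute injury on top of chronic liver disease. The genes were chosen by name and are 10 of the 21959 genes in the deposited table: Mrc1, Cd163, Msr1, Clec10a, Mgl2, Chil3, Retnla, Klf4, Stat6 and Irf4. Saline was given in 2 cases and baicalein, a plant flavone, in the other 2. All 4 livers were thus from ACLF, and no healthy liver was analysed here. The sources used here give no strain, age, dose or time of collection. The series title concerns macrophage polarization that depends on TREM2, and these genes are a common readout of one direction of that polarization.

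Macrophages shift towards the M2 state when interleukin 4 or interleukin 13 binds receptors that contain the interleukin 4 receptor alpha chain. Janus kinases at the receptor then phosphorylate STAT6, which enters the nucleus and acts with factors such as KLF4 and IRF4 on genes for scavenger receptors, lectins and secreted proteins. In liver, resident macrophages (Kupffer cells) carry CD163, and sinusoidal endothelial cells as well as macrophages carry the mannose receptor encoded by Mrc1. STAT6, KLF4 and IRF4 are also made by cells other than macrophages.

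Some general facts bear on every value. Total counts ran from 13976440 to 18731616 per liver. Nothing in the labels ties each liver to a separate animal, so p-values reflect the spread between the samples alone and that spread may be technical. Levels are given in CPM, reads scaled to the size of the library. The livers stood apart in 2 ways. Saline livers had Y-linked transcripts (48.2 and 60.9 CPM, summed over 4 genes) and baicalein livers almost none (0.137 and 0.0497 CPM), so the treatment and a difference by sex cannot be told apart in any comparison. Skeletal muscle transcripts (8 genes) summed to 5698 CPM in saline 1 and 1526 CPM in baicalein 2 but to 1.46 CPM in saline 2 and 0.894 CPM in baicalein 1, so 1 liver of each group carried them. In bulk tissue, fewer cells of a type and less RNA per cell cannot be told apart.

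The genes spanned a wide range of levels. On the deposited FPKM scale, which divides reads by gene length and so allows genes to be compared, Stat6 was highest with a mean over the 4 livers of 18.9, and its range did not overlap that of any other member. Mrc1 (6.49) and Cd163 (4.17) followed, with ranges that overlapped each other. Retnla (1.05, from a single liver for the most part), Msr1 (0.896), Klf4 (0.854), Clec10a (0.471), Mgl2 (0.365), Irf4 (0.264) and Chil3 (0.145) came next, and in this order each range overlapped the next. The most abundant members were thus a signalling factor and 2 surface receptors.

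Baicalein livers had more Cd163 than saline livers, and Mrc1 was at about the same ratio without passing the test. Of the 10 members, 8 had enough reads to be tested with edgeR's quasi-likelihood test, with Benjamini-Hochberg adjustment over 12657 genes and a threshold of 0.05. Among these 8, 1 rose (7.65% of all tested genes rose) and 0 fell (7.90% of all tested genes fell). At an unadjusted p below 0.05 the numbers were 2 and 0. The share over all genes at that cutoff was not counted, so these numbers cannot be weighed and are no result. At the adjusted threshold DESeq2 and limma-voom each gave 2 and 0. Over all genes DESeq2 called 865 higher and 965 lower, and limma-voom 979 higher and 1038 lower. A count of 1 in 8 is near the share of the whole table and says nothing particular about M2 genes. In 5 of the 8, both baicalein livers lay above both saline livers, which held for 29.5% of tested genes. The reverse held for 0 of the 8 and for 29.6% of tested genes. The median log2 fold change of the 8 was 0.48, beside 0.01 over all tested genes. Of the 8, 7 were positive, beside 51.2% of all tested genes. Chil3 and Retnla had too few reads to be tested.

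**Figure D1:**
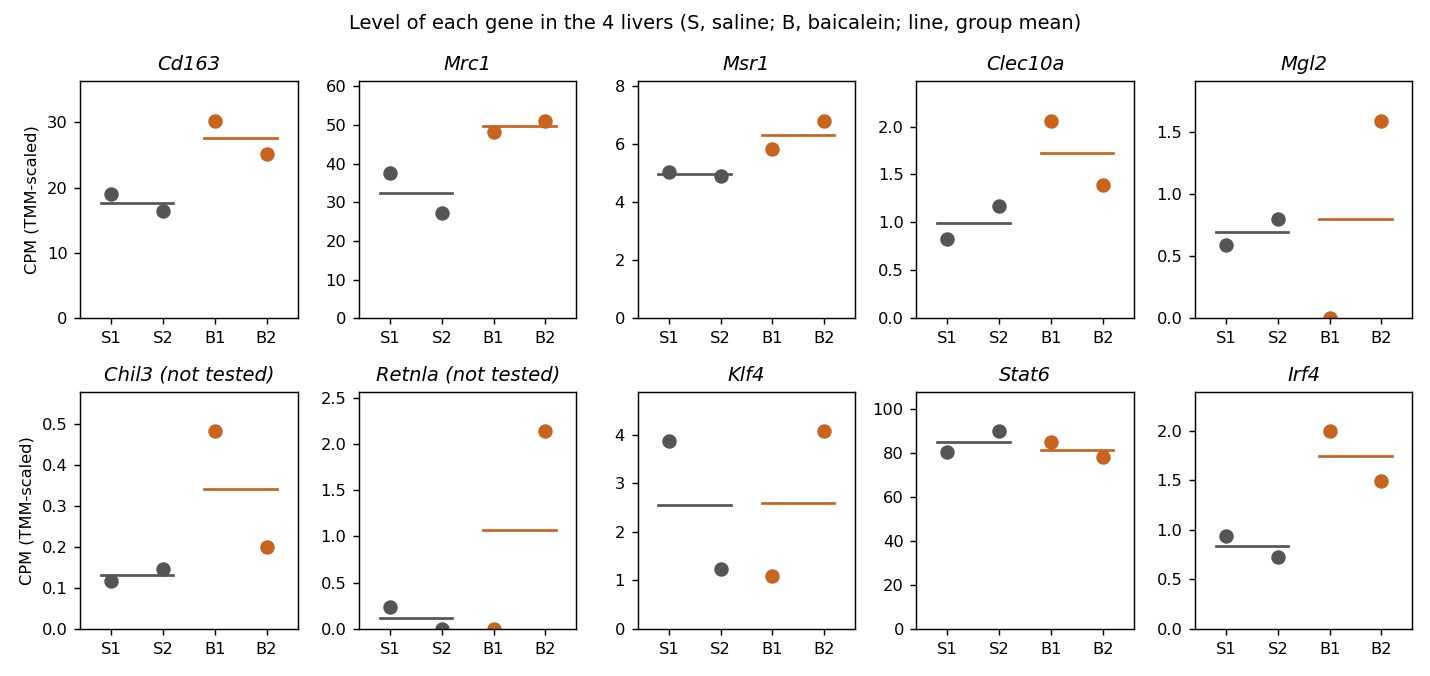
Level of each gene in CPM (y axes, each starting at 0) in saline livers 1 and 2 (S1, S2, grey) and baicalein livers 1 and 2 (B1, B2, orange), with lines at group means. Cd163 and Mrc1 were higher in both baicalein livers, Stat6 overlapped between groups, and Klf4 and Retnla were high in S1 or B2, the livers with skeletal muscle transcripts.

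The receptors gave the clearest values. Cd163 (ENSMUSG00000008845, chromosome 6, 124281615 to 124307486 as the table gives it) encodes the scavenger receptor that takes up haemoglobin bound to haptoglobin. It stood at 19.0 and 16.4 CPM in the saline livers and 30.2 and 25.1 CPM in the baicalein livers, from 323, 225, 440 and 504 reads. Both baicalein livers were above both saline livers. The group means were 17.7 ± 1.82 CPM and 27.7 ± 3.67 CPM (SD, n = 2 each), a 1.56-fold difference (log2 fold change 0.64, SE 0.14, 95% interval 0.33 to 0.96, edgeR adjusted p = 0.0153). The call was lost without saline 2 (adjusted p = 0.102) or without baicalein 1 (adjusted p = 0.122), where the log2 fold changes were 0.54 and 0.49. Baicalein 2 exceeded saline 1 by a log2 ratio of 0.40 (livers with skeletal muscle transcripts) and baicalein 1 exceeded saline 2 by 0.88 (livers without). Because the groups did not overlap, both ratios had to be positive, so only their size carries information.

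Mrc1 (ENSMUSG00000026712, chromosome 2, 14234203 to 14336868) encodes the mannose receptor, which binds glycoproteins ending in mannose. Its levels were 37.7 and 27.3 CPM with saline and 48.1 and 51.2 CPM with baicalein. The groups did not overlap, and the saline livers were further apart than the baicalein livers. The log2 fold change was 0.61 (SE 0.16, 95% interval 0.22 to 1.01, edgeR adjusted p = 0.0567), which did not pass. It passed with DESeq2 (adjusted p = 0.0200), limma-voom (0.0312), no filter on low counts (0.0353) and without saline 1 (0.00486), and over the livers left out the log2 fold change ran from 0.39 to 0.86. The value without saline 2 was the lowest and that without saline 1 the highest. The log2 ratio was 0.44 between the livers with skeletal muscle transcripts and 0.82 between those without.

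Msr1 (ENSMUSG00000025044, chromosome 8, 40034726 to 40095714) encodes a class A scavenger receptor for modified lipoproteins. It had 5.05 and 4.88 CPM with saline and 5.84 and 6.81 CPM with baicalein. The groups did not overlap, but the log2 fold change of 0.35 (SE 0.23, 95% interval -0.17 to 0.87, edgeR adjusted p = 0.352) did not pass. These reads allow anything from a slight decrease to a 1.83-fold increase.

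**Figure D2:**
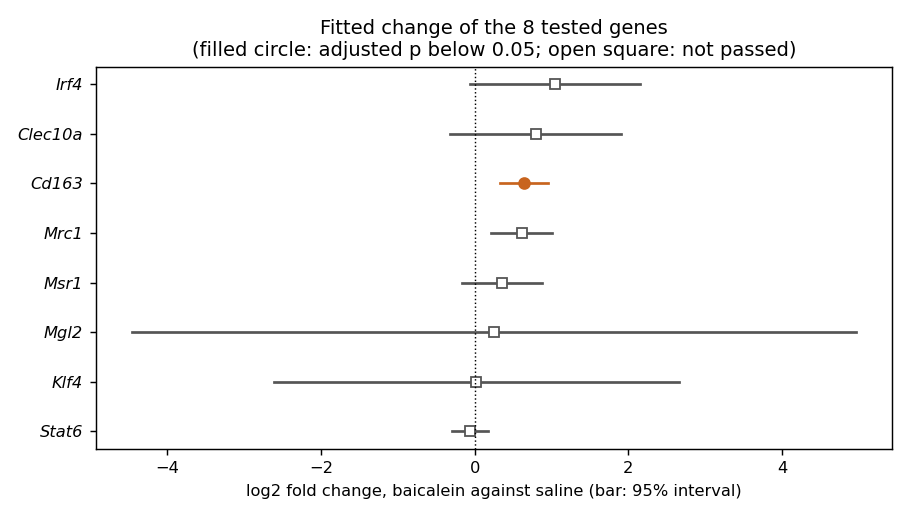
Fitted log2 fold change of baicalein against saline (x axis) for the 8 tested genes, with 95% intervals as bars. The filled circle is Cd163 (0.64), the 1 gene past the threshold, and open squares did not pass; the intervals of Mgl2 and Klf4 are the widest.

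Clec10a and Mgl2 encode a pair of closely related lectins, MGL1 and MGL2, which bind galactose or N-acetylgalactosamine on macrophages and dendritic cells. The genes lie side by side on chromosome 11 (Clec10a, ENSMUSG00000000318, 70047023 to 70061660; Mgl2, ENSMUSG00000040950, 70021155 to 70028376). Their coding sequences in the GENCODE M21 annotation are 924 and 1143 bases long and identical at 88.7% of 914 aligned bases, with a longest identical run of 183 bases. The stretches below run from inside that run past its end. They are shown because reads from the identical part cannot be assigned to 1 gene. Bases that differ between the genes are in capitals, 7 of 150, and the stretches cover coding bases 612 to 761 of Clec10a and 660 to 809 of Mgl2, written 5′ to 3′.
Clec10a: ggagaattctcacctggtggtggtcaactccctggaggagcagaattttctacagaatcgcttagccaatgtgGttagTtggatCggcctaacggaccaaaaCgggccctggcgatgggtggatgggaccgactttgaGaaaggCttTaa
Mgl2: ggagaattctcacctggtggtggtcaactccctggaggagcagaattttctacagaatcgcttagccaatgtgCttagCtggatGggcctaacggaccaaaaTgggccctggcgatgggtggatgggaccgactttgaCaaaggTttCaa

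Of all 50-base words in Clec10a transcripts 9.02% also occur in transcripts of another gene, and of those in Mgl2 transcripts 13.1% do, mostly in each other. The sources used here do not say how the authors treated reads that match both genes, so the split between the pair is uncertain. Clec10a had 14 and 16 reads with saline and 30 and 28 with baicalein, or 0.823, 1.17, 2.06 and 1.39 CPM. Both baicalein livers were higher, and the log2 fold change of 0.79 (SE 0.49, 95% interval -0.32 to 1.91, edgeR adjusted p = 0.327) did not pass. Mgl2 had 10 and 11 reads with saline, 0 in baicalein 1 and 32 in baicalein 2. The baicalein livers thus lay on either side of the saline livers. The exact 95% counting interval was 0 to 0.254 CPM in baicalein 1 and 1.09 to 2.25 CPM in baicalein 2 (1.59 CPM), so these livers differed by more than counting error. The Mgl2 log2 fold change of 0.25 (SE 1.62, 95% interval -4.46 to 4.96, edgeR adjusted p = 0.943) carries no direction. Summed over the pair, the reads were 24, 27, 30 and 60 in saline 1, saline 2, baicalein 1 and baicalein 2 (log2 fold change 0.59, SE 0.41, edgeR adjusted p = 0.391), and the sum did not pass.

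The secreted M2 proteins are the members most often taken as direct STAT6 targets in mouse. Their promoters are shown because the data bear on whether that arm was detectable. Sequences of 8 of the 10 members were found in the RefSeq table for GRCm38.p6 (Msr1 and Clec10a were not). The 250 bases before each start were searched on both strands for a STAT6-type motif, TTCNNNNGAA, a STAT-type motif with a shorter spacer, TTCNNNGAA, and a motif shared by ETS and IRF factors, GGAANNGAAA. Retnla held 1 STAT6-type match, beginning 145 bases before the start, and Chil3 held 1 STAT-type match, beginning 172 bases before it. Among the 32851 start sites listed there, 5.85% held a STAT6-type match, 7.02% a STAT-type match and 2.3% an ETS-IRF match in the same window. The other members with a sequence (Mrc1, Cd163, Mgl2, Klf4, Stat6 and Irf4) held no match, which says only that these letters are not in this window. The gene positions given elsewhere come from the deposited table and mostly differ from this build, so they cannot be set against the promoter positions. The sequences run 5′ to 3′ on the strand of the gene, chr16:48842359-48842608 (plus) for Retnla and chr3:106167565-106167814 (minus) for Chil3, with the match in capitals.
Retnla: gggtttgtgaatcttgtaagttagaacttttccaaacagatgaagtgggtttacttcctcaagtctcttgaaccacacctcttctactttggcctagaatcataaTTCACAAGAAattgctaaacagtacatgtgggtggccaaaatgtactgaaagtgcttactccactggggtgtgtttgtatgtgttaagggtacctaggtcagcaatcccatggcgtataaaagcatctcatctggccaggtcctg
Chil3: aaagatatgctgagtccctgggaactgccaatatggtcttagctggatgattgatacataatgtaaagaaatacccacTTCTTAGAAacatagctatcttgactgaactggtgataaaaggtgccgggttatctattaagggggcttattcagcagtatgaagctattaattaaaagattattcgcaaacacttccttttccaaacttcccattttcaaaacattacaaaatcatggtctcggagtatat

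Retnla (ENSMUSG00000061100, chromosome 16, 48662914 to 48664824) encodes RELM alpha, a small secreted protein also called FIZZ1. It had reads in saline 1 (4) and baicalein 2 (43) but 0 in saline 2 and baicalein 1. Nearly all of its reads thus came from a single liver, at 2.14 CPM (exact 95% counting interval 1.55 to 2.88), while the intervals of the 2 livers with no read ended at 0.254 CPM (baicalein 1) and 0.269 CPM (saline 2). The 2 livers with reads were the 2 with skeletal muscle transcripts. Over the groups this was 4 against 43 reads, a ratio of 9.53 with an exact 95% counting interval of 3.46 to 36.6, which leaves out 1 but covers counting error only. The ratio was 0 without baicalein 2, so no difference between treatments can be read from these counts.

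Chil3 (ENSMUSG00000040809, chromosome 3, 106054870 to 106074880) encodes the chitinase-like protein YM1. It had 2 reads in each saline liver, 7 in baicalein 1 and 4 in baicalein 2, or 0.118, 0.146, 0.481 and 0.199 CPM. Over the groups this was 4 against 11 reads, a ratio of 2.44 with an exact 95% counting interval of 0.723 to 10.5, which includes no difference. Of the 50-base words in Chil3 transcripts 26.9% also occur in another gene, chiefly its paralog Chil4, which had no read in any liver.

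Among the transcription factors, Stat6 had the tightest value and no difference that passed. Stat6 (ENSMUSG00000002147, chromosome 10, 127478855 to 127496826) had 80.3 and 89.7 CPM with saline and 84.8 and 77.9 CPM with baicalein, from 1231 to 1566 reads per liver. The groups overlapped, with a log2 fold change of -0.06 (SE 0.10, edgeR adjusted p = 0.748). The 95% interval of the fold ran from 0.815 to 1.13, the narrowest of the 8 tested members. The value is of the messenger RNA and not of STAT6 phosphorylation.

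Klf4 (ENSMUSG00000003032, chromosome 4, 55527143 to 55532466) encodes a zinc finger factor that endothelium, smooth muscle and epithelium also express. It had 66 and 17 reads with saline and 16 and 82 with baicalein. Its level was 3.88 and 4.08 CPM in the 2 livers with skeletal muscle transcripts and 1.24 and 1.10 CPM in the 2 without. The lower of the first pair was 3.13-fold above the higher of the second, and the groups overlapped fully (log2 fold change 0.02, SE 0.92, 95% interval -2.61 to 2.66, edgeR adjusted p = 0.991). Within livers with such transcripts the log2 ratio of baicalein to saline was 0.07 and within those without it was -0.17. Of 12657 tested genes 392 (3.1%) were at least 2-fold higher in both saline 1 and baicalein 2 than in either other liver, and 5 (0.0395%) the other way round. A list of 8 mast cell, eosinophil and basophil genes did not follow these livers as a whole, with a sum of 11.5 and 12.0 CPM in saline 1 and 2 and 14.5 and 23.7 CPM in baicalein 1 and 2. In the order saline 1, saline 2, baicalein 1 and baicalein 2, the mast cell genes Cpa3 (2, 0, 0 and 12 reads) and Mcpt4 (6, 0, 0 and 25 reads) had reads in the same livers as Retnla. Kit (10.9, 11.9, 11.3 and 19.9 CPM) made up most of the sum in every liver and was lowest in saline 1. Siglecf (1, 1, 6 and 25 reads), Epx (0, 0, 3 and 2) and Prg2 (0, 0, 38 and 13) were higher in both baicalein livers. Mcpt8 and Ms4a2 had no read. The part of skeletal muscle or mast cell transcripts in the Klf4 and Retnla values was not tested.

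**Figure D3:**
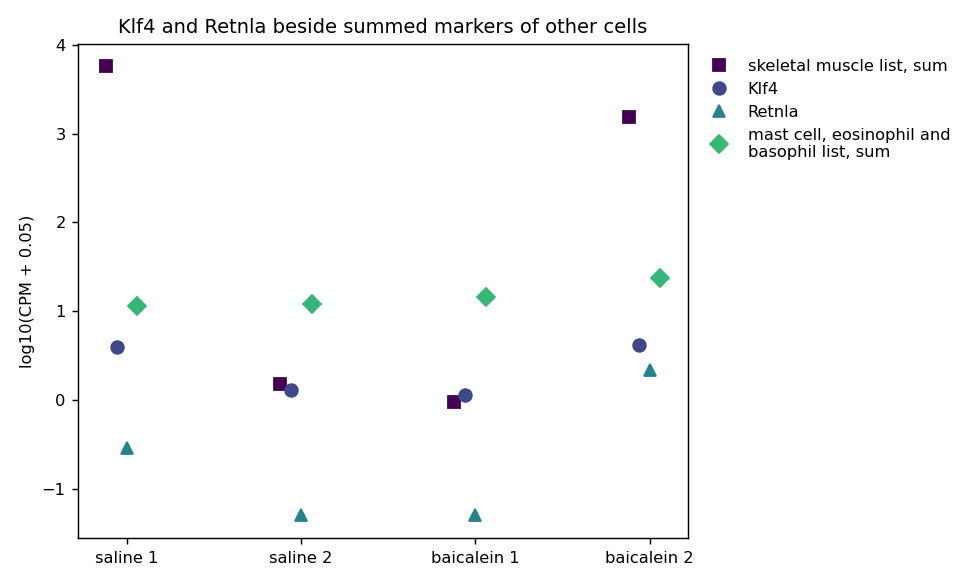
Levels as log10(CPM + 0.05) (y axis) of Klf4, Retnla, the sum of 8 skeletal muscle genes and the sum of 8 mast cell, eosinophil and basophil genes in each liver (x axis). Klf4, Retnla and the muscle sum were higher in saline 1 and baicalein 2 than in the other livers, where Retnla had 0 reads. The last sum, most of it Kit, was lowest in saline 1 (11.5 CPM) and highest in baicalein 2 (23.7 CPM).

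Irf4 (ENSMUSG00000021356, chromosome 13, 30933209 to 30950959) encodes a factor of macrophages, dendritic cells, lymphocytes and plasma cells. It had 16 and 10 reads with saline and 29 and 30 with baicalein, or 0.940, 0.729, 1.99 and 1.49 CPM. Both baicalein livers were higher, and the log2 fold change of 1.05 was the largest among tested members (SE 0.49, 95% interval -0.06 to 2.15). It did not pass (edgeR adjusted p = 0.192). Summed B and plasma cell markers (6 genes, none at 0 in all livers) were at 6.11 and 5.91 CPM with saline and 17.4 and 15.9 CPM with baicalein, and 1 of 5 tested rose (7.65% over all tested genes). Their part in the Irf4 value was not tested.

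Many markers of macrophages, Kupffer cells and sinusoidal endothelium also rose in the baicalein livers, where 7.65% of all tested genes rose. Of 12 macrophage markers all 12 were tested and 7 rose, among them Csf1r, the receptor of a macrophage growth factor (log2 fold change 0.70, SE 0.14), and Mertk, a receptor for dead cells (1.03, SE 0.11). Both baicalein livers were above both saline livers in all 12 (29.5% over all tested genes), with a median log2 fold change of 0.67. The sum of the 12 was 428 and 394 CPM with saline and 704 and 612 CPM with baicalein, and none was at 0. Without baicalein 1 or without saline 2, 3 of the 12 rose. Of 9 Kupffer cell markers 5 rose (summed level 495 and 438 against 760 and 654 CPM, none at 0). Of 10 sinusoidal endothelial markers 9 rose (summed level 448 and 396 against 656 and 654 CPM, none at 0), 3 without saline 2 and 4 without baicalein 1. Of 8 tested dendritic cell markers 1 rose, Sirpa, which macrophages carry too (31.2 and 31.8 against 56.8 and 46.7 CPM, log2 fold change 0.72, SE 0.11). The sum of all 10 dendritic cell markers, none at 0, was 46.3 and 48.1 against 78.0 and 64.4 CPM, and without Sirpa it was 15.1 and 16.3 against 21.2 and 17.7 CPM. Median log2 fold changes were also positive for monocyte (0.71), vascular endothelial (0.41), T and NK cell (1.08) and neutrophil markers (0.89). Of these lists 1 of 6, 2 of 8, 1 of 8 and 2 of 5 tested genes rose. The median of 7 hepatocyte markers was -0.25, and 1 rose and 2 fell. Higher values were thus not particular to macrophage and sinusoidal markers.

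Set against the macrophage markers of the same liver, Cd163 was nearly constant. It amounted to 4.43% and 4.17% of the summed macrophage marker CPM in the saline livers and to 4.30% and 4.10% in the baicalein livers, a ratio of the group means of 0.976. The groups overlapped in this share, unlike in CPM. In the order saline 1, saline 2, baicalein 1 and baicalein 2, Cd163 was at 3.84%, 3.75%, 3.98% and 3.83% of the Kupffer cell sum. Of the sinusoidal endothelial sum it was at 4.24%, 4.14%, 4.61% and 3.83%. The ratios of the group means were 1.03 and 1.01, so the near constancy was not particular to the macrophage sum. Mrc1 amounted to 8.79% and 6.94% with saline and 6.83% and 8.36% with baicalein (ratio of means 0.966), and the livers with skeletal muscle transcripts were the higher of each group. Against the sinusoidal endothelial sum Mrc1 was at 8.41%, 6.90%, 7.34% and 7.82% in saline 1, saline 2, baicalein 1 and baicalein 2. Msr1 was at 1.18% and 1.24% of the macrophage sum with saline and 0.830% and 1.11% with baicalein. Stat6, expressed well beyond macrophages, went from 18.7% and 22.8% to 12.0% and 12.7%. Its CPM overlapped between groups, and the macrophage sum was higher with baicalein, so this is no fall of Stat6 itself. These shares are a description, and no test was run on them.

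**Figure D4:**
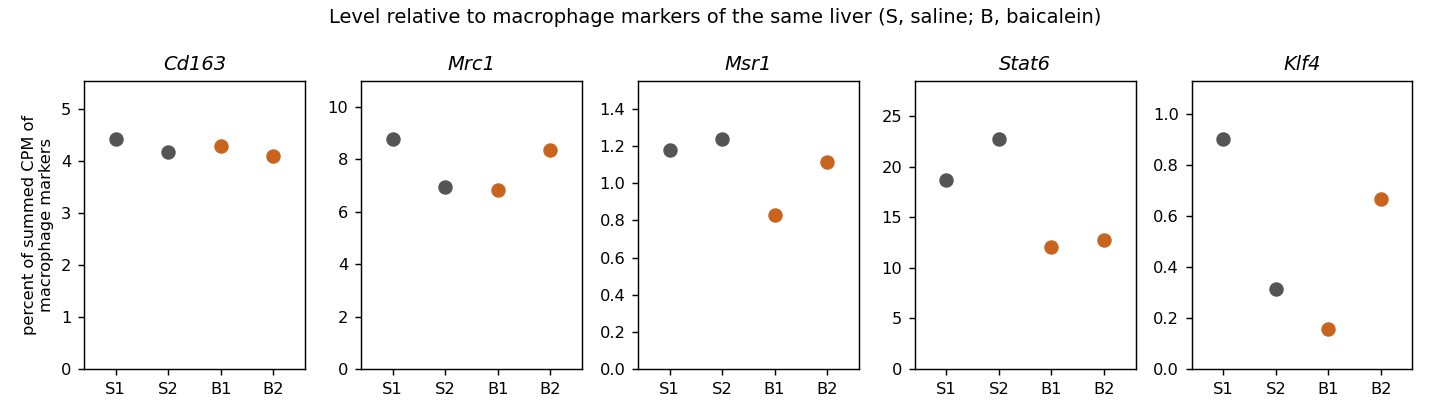
Level of 5 genes as a percent of the summed CPM of 12 macrophage markers in the same liver (y axes, from 0) for saline livers 1 and 2 (S1, S2) and baicalein livers 1 and 2 (B1, B2). Cd163 stays between 4.10% and 4.43%, and Mrc1 overlaps between groups. The share of Stat6 is lower in both baicalein livers, where the macrophage sum was higher, while its CPM overlapped between groups.

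Patterns over the 4 livers were compared with those of 153 other tested genes from the lists of pathways, relatives and cell type markers. The measure was the distance between log2(CPM + 0.5) profiles, each centred on its own mean, and it is a description over 4 livers. The nearest to Cd163 were Csf1r (0.10), Alb (0.11) and Cd79a (0.12). The nearest to Mrc1 were Kdr (0.14), Fcgr2b (0.15) and Tek (0.15), which are on the lists of endothelial markers. Msr1 was nearest to Tie1 (0.07), Irf4 to Csf1r (0.09), Clec10a to Cd3e (0.08) and Stat6 to Scarb1 (0.09). The added 0.5 shrinks differences of genes at low CPM, such as Irf4 and Clec10a, so their neighbours are less certain. Klf4 and Mgl2 had no neighbour nearer than 0.99 and 0.90.

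In the upstream pathway 2 of 12 tested genes rose and 1 fell (7.65% and 7.90% over all tested genes), with a median log2 fold change of 0.08. Reads of Il4 itself were 5, 5, 8 and 15 in saline 1, saline 2, baicalein 1 and baicalein 2, too few to be tested, and Il13 had 0 in every liver, where 3 reads would be 0.149 to 0.219 CPM. Il13ra1, a receptor chain for both cytokines, rose from 29.4 ± 2.49 to 43.4 ± 7.29 CPM (SD, n = 2 each, log2 fold change 0.57, SE 0.13), and Ptpn6, a phosphatase that restrains cytokine receptors, also rose (log2 fold change 0.42, SE 0.12). Cish, a feedback inhibitor of cytokine receptors, was lower, at 7.93 ± 0.454 against 16.1 ± 3.96 CPM (log2 fold change -1.02, SE 0.19). Il4ra (log2 fold change -0.15, SE 0.10) and Jak1 (0.02, SE 0.09) did not pass. With a liver left out, 0 to 1 of the 12 rose and 0 to 1 fell.

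Other genes used as M2 markers went both ways. Of 24 tested, 5 rose, 2 fell and 17 did not pass (over all tested genes 7.65% rose and 7.90% fell), and the median log2 fold change was 0.39. Arg1 (arginase), Il1rn (an interleukin 1 antagonist), Maf, Clec7a and Slc7a2 rose. Maf, a macrophage transcription factor, was at 31.6 and 27.8 CPM with saline and 51.1 and 51.2 CPM with baicalein (log2 fold change 0.79, SE 0.10, edgeR adjusted p = 0.00118). Clec7a, the beta-glucan receptor, was at 3.64 and 4.52 against 9.42 and 8.45 CPM (log2 fold change 1.13, SE 0.22, edgeR adjusted p = 0.0103). Slc7a2, an arginine transporter, had a log2 fold change of 0.38 (SE 0.10). Myc fell, being at 15.7 and 19.0 CPM with saline and 2.27 and 2.93 CPM with baicalein (log2 fold change -2.72, SE 0.20, edgeR adjusted p = 6.15e-05), and Kdm6b, a histone demethylase, fell by 0.68 on the log2 scale (SE 0.13). Hepatocytes express Arg1, Slc7a2 and Myc too. Arg1 was at 1036 and 1011 CPM with saline and 1900 and 1628 CPM with baicalein, above the summed macrophage markers of each liver. The part of macrophages in the rise of Arg1, or of Il1rn, Maf, Clec7a and Slc7a2, was not tested. Without saline 1, 1 of the 24 rose, and without saline 2 or baicalein 1, 3 did.

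Relatives of the members were read from 2 lists. Over all tested genes 7.65% rose and 7.90% fell. Of 20 tested scavenger receptor and lectin genes 6 rose, 0 fell (edgeR; DESeq2 gave 5 and 0) and the median log2 fold change was 0.43. Marco, a class A scavenger receptor like Msr1, was at 8.99 and 7.87 CPM with saline and 29.9 and 26.2 CPM with baicalein (log2 fold change 1.73, SE 0.14). Asgr1, the hepatocyte lectin related to Clec10a, did not pass (0.07, SE 0.11). Mrc2, a relative of Mrc1, had a log2 fold change of 0.18 (SE 0.40). Of the scavenger and lectin genes 3 rose without saline 2. Of 17 tested KLF, IRF and STAT genes 4 rose (Klf13, Klf15, Irf1 and Irf8) and 2 fell (Stat5a and Stat5b), and the median log2 fold change was 0.13. Irf8, a factor of monocytes and macrophages, went from 11.6 and 11.2 CPM to 17.9 and 19.0 CPM (log2 fold change 0.70, SE 0.13). In this list 0 genes fell without saline 1, baicalein 1 or baicalein 2, and 1 fell without saline 2.

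**Figure D5:**
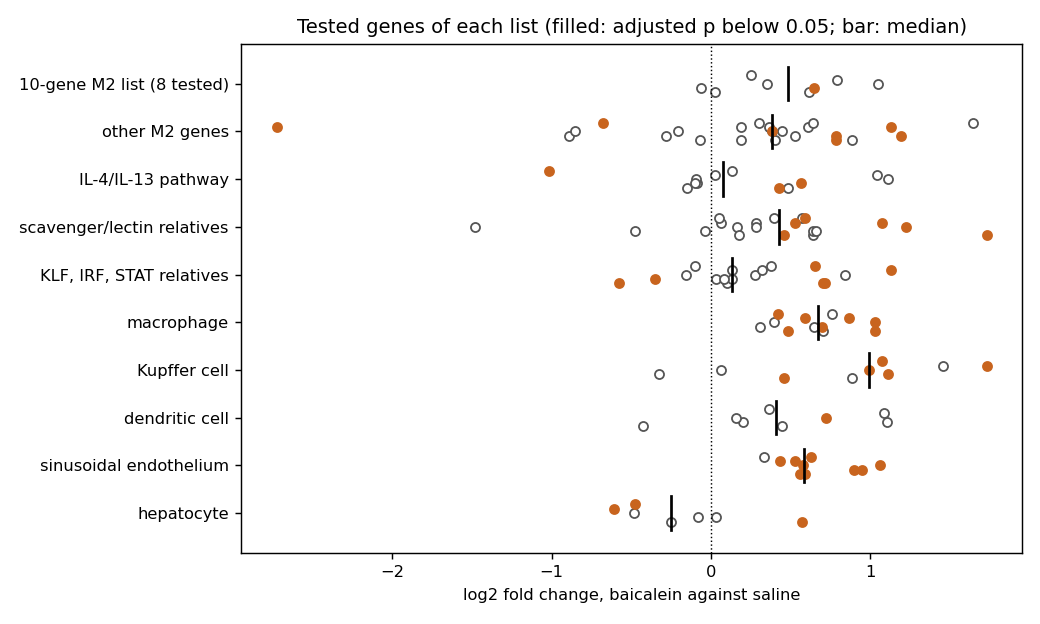
Log2 fold change of baicalein against saline (x axis) for each tested gene of 10 lists (rows), filled where the adjusted p was below 0.05, with a bar at each median. The 8 tested M2 genes have a median of 0.48, and the macrophage and sinusoidal endothelial lists medians of 0.67 and 0.58.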

How the data were processed

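Total RNA from liver went into SMARTer mRNA libraries, per the labels' protocols. The authors deposited 1 table with raw read counts and FPKM values for each liver. Per the submitters' processing notes the build was mm10. The sources used here name no aligner or counter. Of the 10 members, 1 had the same start and end in GENCODE M21 (mm10), so positions are printed as the table gives them. Counts and FPKM of the members corresponded within a tolerance of 1%.

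Columns were tied to livers by title. Counts of 12657 genes kept by filterByExpr (minimum count 10, minimum total 15) entered the fit after TMM scaling. Baicalein was compared with saline by the robust quasi-likelihood test of edgeR (version 4.0.16, with R 4.3.3), without covariates. CPM values are counts scaled by the library total and its TMM factor (0.963 to 1.07). Counting intervals are exact at 95% and cover counting error only. The floor for a count of 0 is 3 reads. Alternatives were RLE size factors, DESeq2 1.42.0, limma-voom (limma 3.58.1), other filters, a replicate block and each liver left out.

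All members are named. From the other lists, genes past the threshold, among the 4 of smallest p or among the 3 nearest to a member in pattern were named, and others (Il4, Il13, Il4ra, Jak1, Asgr1, Mrc2, Chil4, Cpa3, Mcpt4, Mcpt8, Ms4a2, Siglecf and Epx) were added after their values were seen. The members and lists were chosen with earlier results of these data known.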

Additional observations from a re-analysis of the deposited data

How the results depend on the processing

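Cd163 and Mrc1 were higher with baicalein under all 11 alternatives run for each, with log2 fold changes of 0.49 to 0.78 and 0.39 to 0.86. For both genes the groups did not overlap, so the direction with a liver left out was largely fixed in advance. Of the members, 2 were called higher with DESeq2, limma-voom or no filter on low counts, and 0 to 2 with a liver left out. No member was called lower in any of these. The cause was not tested. With the replicate number as a block, which the data do not bear out as a pairing (correlation of deviations -0.74), 531 genes rose and 601 fell, against 968 and 1000 without it, and Cd163 was the 1 member called. With crossed pairs as a block, chosen after seeing the data, 1809 genes rose and 1689 fell, and 2 members, Cd163 and Mrc1, were called. With a liver left out, which also leaves fewer samples, 521 to 665 genes rose and 535 to 663 fell. Directions that turned were those of members with wide intervals or values near 0. Mgl2 had a log2 fold change of -1.27 with limma-voom, -0.86 with the replicate block and -0.037 with crossed pairs, and -6.40 to 1.19 with a liver left out, the lowest without baicalein 2. Klf4 had -0.041 with the replicate block, -0.0098 with crossed pairs, and -1.22 to 1.06 with a liver left out. Stat6 ran from -0.15 to 0.014, the highest without saline 2. The Retnla ratio, 9.53 with all livers, ran from 0 (without baicalein 2) to 16.3, and no ratio could be had without saline 1. Clec10a, Irf4 and Msr1 kept their direction and did not pass in any alternative run. Clec10a, Mgl2, Irf4, Chil3 and Retnla had at most 43 reads in any liver, and for Chil3 the counting interval of the ratio includes 1. For Mgl2 and Retnla the baicalein livers differed by more than counting error.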
